A study of Drosophila melanogaster with 2 samples.

Results

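The 10 genes described here are the 3 *Drosophila* yolk protein genes, *Yp1*, *Yp2* and *Yp3*, and 7 genes of the sex determination pathway, *Sxl*, *tra*, *tra2*, *dsx*, *fru*, *ix* and *her*. They were matched by exact symbol among the 14794 genes of the RNA-Seq table, and all 10 were found. The yolk genes were chosen by their FPKM values in earlier results of these data, so their differences between the libraries are given as a description and not as a test. Each genotype was sequenced as 1 library of polyadenylated RNA from whole adult males aged 1 to 3 days. The first library came from males homozygous for *heph2*, a *P* element insertion in an intron of the polypyrimidine tract-binding protein gene *hephaestus* that leaves males sterile. The second came from *heph2*/*TM3* males, which served as the wild-type control. These control males also carry 1 *heph2* chromosome, and *TM3* is a rearranged balancer form of chromosome 3, so all of chromosome 3 differed in constitution between the genotypes along with the *heph2* dose. How many males were pooled in a library was not given in the sources used here. With 1 library per genotype there is no replicate check, no p-value was computed, and every difference is one between these 2 libraries.

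Yolk proteins are secreted into the blood of the female fly by the fat body, an organ that combines functions of liver and fat tissue, and are also made by the follicle cells that surround the egg in the ovary. Oocytes take them up as food for the embryo, and males are known for very low yolk gene expression. The difference between the sexes is set by a cascade of splicing regulators. In females *Sxl* directs productive splicing of *tra* RNA, and Tra with Tra2 then directs female splicing of *dsx* and *fru*. The female form of Dsx activates yolk genes in the fat body together with the cofactor encoded by *ix*, and the male form represses them. In males *Sxl* and *tra* are transcribed as well, but their RNA is spliced into forms without full-length protein.

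The 3 yolk genes were far lower in *heph2* males than in control males, and the 7 regulators were at similar levels in both. Values are FPKM, in which the reads of a gene are divided by its transcript length and by the size of the library. The summed yolk FPKM was 14.7 in the *heph2* library and 114 in the control library, 7.74-fold lower in *heph2*. The summed FPKM of the 7 regulators was 94.4 in the *heph2* library and 94.2 in the control library.

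**Figure D1:**
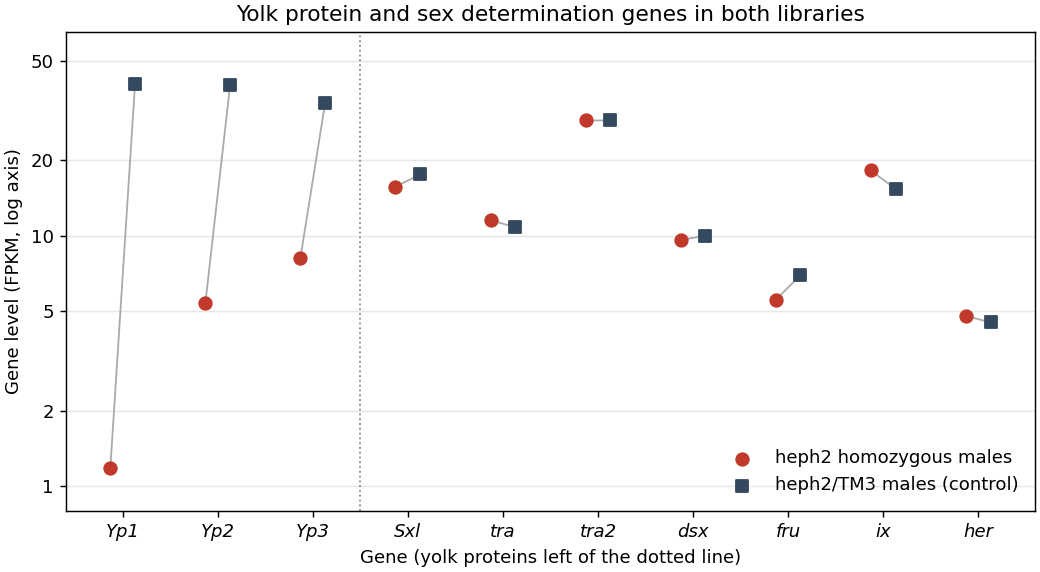
FPKM of each of the 10 genes in the *heph2* library (red circles) and the control library (dark squares) on a log axis, with 1 library per genotype and a grey line joining the 2 values of a gene. The yolk genes lie between 1.18 and 8.17 FPKM in *heph2* against 33.9 to 40.2 FPKM in the control, while the regulators stay between 4.52 and 28.9 FPKM in both.

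The comparison with the rest of the transcriptome used 11962 genes that averaged 1 FPKM or more and were not listed at 0 in either library. All 10 members passed this filter. A gene was counted as lower or higher when its FPKM differed at least 2-fold. Of the genes compared, 2.44% were at least 2-fold lower in *heph2*, and 2.79% were at least 2-fold higher. All 3 yolk genes were at least 2-fold lower, which their choice had fixed, and 0 of the 7 regulators were at least 2-fold lower or higher. Across all genes compared, the median log2 ratio of *heph2* to control was 0.01, with quartiles of -0.24 and 0.29. The balance of the counts depended on the scaling. The 2-fold counts were 334 higher and 292 lower as reported, 104 higher and 940 lower when ratios were centred on the ribosomal protein genes, 230 higher and 415 lower when scaled on the upper quartile, and 201 higher and 383 lower when centred among genes of similar transcript length.

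Reads were estimated to judge precision, since FPKM values hold no counts. In low genes the values moved in steps, and the step of 1 read on 1 kilobase was 0.0333 FPKM in *heph2* and 0.0215 FPKM in the control. Where 1 to 10 reads were estimated for a gene of a single transcript, 61.7% of values in *heph2* and 60.0% in the control lay within 0.1 of a whole read. Values spread evenly would give 20%, but the step had been fitted to bring these same low genes nearest to whole reads. Some excess over 20% was therefore built in. An estimated 32398241 *heph2* reads and 42753919 control reads stood behind the genes of known length, so the control library was the deeper. The 95% intervals below were computed from these estimated reads. They cover counting error only and say nothing of differences between flies. *heph* itself had 27.2 FPKM in the *heph2* library and 44.0 FPKM in the control, over all of its transcripts together. The paper reports that most *heph* transcripts were truncated in *heph2*, with few reads downstream of the insertion. The gene level therefore does not measure full-length *heph* RNA. The reported sex was compared with 12 genes of adult males, among them the male-specific *roX1* RNA, seminal fluid genes and sperm genes. All 12 were detected in both libraries, at 24.6 to 3688 FPKM in *heph2* and 22.9 to 3105 FPKM in the control. Of these, *Acp36DE* and *Acp70A* were at least 2-fold lower in *heph2*, with log2 ratios of -1.61 and -1.10, beside 2.44% of all genes. *Mst84Db* was at least 2-fold higher, with a log2 ratio of 1.12, beside 2.79%. *Mst84Db* fell short of 2-fold when centred on ribosomal protein genes or similar transcript length, or scaled on the upper quartile. Centred on ribosomal protein genes, *Acp26Aa* and *Acp53Ea* were also at least 2-fold lower. The listed seminal fluid genes all lay below 0, from -1.61 to -0.24, and the listed sperm genes all above 0, from 0.39 to 1.12. Detection of male genes cannot tell whether a library also held some female tissue, which was not tested. Genes of female tissue are given further below.

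*Yp1* (FBgn0004045) lies on chromosome X from 9947885 to 9949531 in FlyBase r5.44, the coordinates of all positions here. It encodes a yolk protein of 439 residues in the later BDGP6 annotation. *Yp1* had 1.18 FPKM in *heph2* males, against 40.2 FPKM in control males. About 49 *heph2* reads and 2605 control reads stood behind these values. The level in *heph2* was 34.1-fold lower, with a 95% counting interval of 25.8-fold to 46.4-fold and a log2 ratio of -5.09. Just 10 of the 11962 genes stood lower than *Yp1* by ratio. BDGP6 places an antisense RNA over 54.3% of the exon bases of *Yp1*, and reads from it could not be told apart from *Yp1* reads if the library did not keep strand.

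*Yp2* (FBgn0005391) lies beside *Yp1* on chromosome X, from 9945049 to 9946669, on the opposite strand in BDGP6. The genes are divergent, with 1215 bases between them, a stretch known to hold the shared enhancers that drive both. *Yp2* encodes 442 residues. It had 5.39 FPKM in *heph2* males, against 39.9 FPKM in control males, from about 224 and 2571 reads. This was 7.39-fold lower, with a counting interval of 6.45-fold to 8.51-fold and a log2 ratio of -2.89. By ratio, 26 genes stood lower than *Yp2*.

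*Yp3* (FBgn0004047) lies apart from the other two, on chromosome X from 13653578 to 13655200, and encodes 420 residues. It had 8.17 FPKM in *heph2* males, against 33.9 FPKM in control males, from about 362 and 2337 reads. This was 4.16-fold lower, with a counting interval of 3.72-fold to 4.66-fold and a log2 ratio of -2.06. By ratio, 44 genes stood lower than *Yp3*. The yolk genes are paralogues, and how reads shared between them were assigned was not examined.

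The yolk genes did not fall by the same factor. The counting intervals of their folds did not overlap, with *Yp1* the most reduced and *Yp3* the least. In control males the yolk genes were near to each other, and *Yp1* made up 35.3%, *Yp2* 35.0% and *Yp3* 29.8% of their summed FPKM. In *heph2* males the shares were 8.01% for *Yp1*, 36.6% for *Yp2* and 55.4% for *Yp3*. The ratio of *Yp1* to *Yp2*, the pair that shares its upstream region, was 0.219 in *heph2* and 1.01 in the control. The ratio of *Yp2* to *Yp3* was 0.660 in *heph2* and 1.17 in the control. Over the 9 processing alternatives the log2 ratios lay between -5.53 and -4.24 for *Yp1* and between -3.33 and -2.68 for *Yp2*. For *Yp3* they lay between -2.50 and -1.93. Most of these alternatives leave the values as they are or move both *Yp1* and *Yp2* by the same amount, so they do not bear on the order of the genes. Whether other flies of these genotypes would give the same order was not tested.

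**Figure D2:**
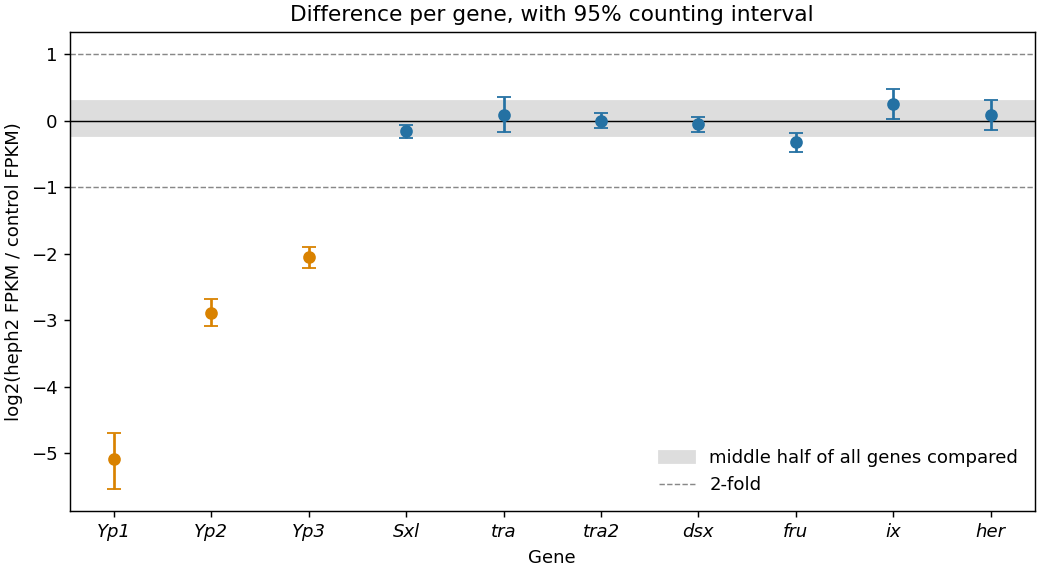
log2 ratio of *heph2* to control FPKM for each gene (orange, yolk proteins; blue, regulators), with 95% counting intervals from estimated reads, which leave out differences between flies. The grey band spans the quartiles of the 11962 genes compared, from -0.24 to 0.29, and the dashed lines mark 2-fold; the yolk intervals lie below it and apart from each other, while 6 of the 7 regulators have their value within the band.

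The yolk genes were also set beside genes of similar length, genes of the same chromosome and their chromosomal neighbours. The ratios of the table moved with length, with a median of 0.33 for transcripts of up to 1000 nucleotides and -0.20 for those over 3000 nucleotides, but the 1669 genes with transcripts of 1400 to 1800 nucleotides, the range of most yolk transcripts, had a median of 0.03. The 1856 genes of chromosome X had a median of 0.02, and 1.78% of them were at least 2-fold lower. Of 10 other genes compared within 50 kb of *Yp1* and *Yp2*, 0 were at least 2-fold lower, with a median log2 ratio of -0.20 and a range of -0.59 to 0.53. Of 17 around *Yp3*, 0 were at least 2-fold lower, with a median of 0.07 and a range of -0.48 to 0.74. Of all genes compared, 2.44% were at least 2-fold lower, so for so few neighbours a count of 0 lies near that share.

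The regulators were taken in the order in which they act. *Sxl* (FBgn0003659, chromosome X from 6969698 to 6992086), the RNA-binding switch at the head of the cascade, had 15.7 FPKM in *heph2* males and 17.6 FPKM in control males, a log2 ratio of -0.16 with a counting interval of -0.26 to -0.06. The interval left out 0, but the size was within the quartiles of all genes. When centred among genes of similar transcript length, the ratio was -0.03. *her* (FBgn0001185, chromosome 2L from 16677210 to 16679932), a zinc finger gene that acts on *Sxl* and, in part on its own, on yolk genes, had 4.79 FPKM in *heph2* and 4.52 FPKM in the control. Its log2 ratio was 0.08 (-0.14 to 0.30).

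*tra* (FBgn0003741, chromosome 3L), the direct splicing target of Sxl, had 11.5 FPKM in *heph2* and 10.9 FPKM in the control, from about 199 and 290 reads, with a log2 ratio of 0.09 (-0.18 to 0.36). The table gives it the region from 16580433 to 16588142, which it shares with 3 other genes. Of its exon bases, 8.58% overlap *l(3)73Ah* on the opposite strand, which had 18.7 FPKM in *heph2* and 15.5 FPKM in the control. *tra2* (FBgn0003742, chromosome 2R from 10488769 to 10491857), the RNA-binding partner of Tra, was the most abundant regulator in both libraries. It had 28.9 FPKM in each and a log2 ratio of -0.00064, with an interval of -0.12 to 0.11, from about 1032 *heph2* and 1604 control reads.

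*dsx* (FBgn0000504, chromosome 3R from 3746156 to 3793130), the transcription factor that binds the yolk enhancers, had 9.63 FPKM in *heph2* and 10.01 FPKM in the control. Its log2 ratio was -0.06, with an interval of -0.17 to 0.06, from about 1024 and 1652 reads. *Yp1* stood at 0.123 times the *dsx* level in *heph2* males, against 4.02 times in control males. *Yp2* stood at 0.559 times the *dsx* level in *heph2*, against 3.98 times in the control, and *Yp3* at 0.848 times in *heph2*, against 3.39 times in the control. *ix* (FBgn0001276, chromosome 2R from 7246942 to 7247668), which encodes the Dsx cofactor in females, had 18.2 FPKM in *heph2* and 15.4 FPKM in the control. Its log2 ratio was 0.24 (0.02 to 0.47), and -0.09 among genes of similar length, since its transcript is short with 727 nucleotides.

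*fru* (FBgn0004652, chromosome 3R from 14242315 to 14371308), whose male proteins set up courtship behaviour, had the lowest ratio of the regulators. It had 5.55 FPKM in *heph2* males and 6.97 FPKM in control males, from about 660 and 1286 reads. The log2 ratio was -0.33 with a counting interval of -0.47 to -0.19. Of the genes compared, 60.1% were as near to 0 as *fru* or nearer, and its transcripts are long, with a median of 4159 nucleotides. Among genes of similar length its ratio was -0.09.

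The levels of the regulators fell in nearly the same order in both libraries. In *heph2* males it was *tra2*, *ix*, *Sxl*, *tra*, *dsx*, *fru* and *her* from high to low, and in control males *tra2*, *Sxl*, *ix*, *tra*, *dsx*, *fru* and *her*. The neighbours *ix* and *Sxl* changed places. Their counting intervals overlapped narrowly in *heph2*, with 16.2 to 20.5 FPKM for *ix* and 14.9 to 16.6 FPKM for *Sxl*. An overlap of intervals does not show that levels are equal, and the differences between regulators were not tested. In the control the intervals were 13.9 to 17.0 FPKM for *ix* and 16.9 to 18.3 FPKM for *Sxl*, which also touched. The intervals of *tra* and *dsx* overlapped in both libraries, and those of *fru* and *her* overlapped in *heph2*, with 5.14 to 5.99 FPKM for *fru* and 4.26 to 5.37 FPKM for *her*. In the control *fru* and *her* were apart. Each gene value pools all transcripts of the gene, 25 for *Sxl*, 7 for *dsx* and 15 for *fru* in BDGP6, so these levels cannot tell male from female splice forms. *tra*, *dsx* and *fru* lie on chromosome 3 itself. For every gene, on any chromosome, the effects of *heph2* and of *TM3* cannot be told apart in these libraries.

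The genes that act on or with the regulators were read from lists of X-chromosome signal genes, Sxl splicing cofactors, *msl-2* with its Sxl corepressor *Unr*, Tra and Tra2 splicing partners, and Dsx and Fru partners. Of 36 genes in these 5 lists, 32 passed the filter, with a median log2 ratio of -0.03. Among them, 0 were at least 2-fold lower or higher, beside 2.44% and 2.79% of all genes. For lists of this size a count of 0 lies near those shares. Centred on ribosomal protein genes, *retn* passed 2-fold with a log2 ratio of -1.11, and the others did not. The lowest ratio was that of *retn*, which represses courtship in females and had 4.13 FPKM in *heph2* and 6.54 FPKM in the control. *snf*, which encodes a U1 and U2 snRNP protein needed for *Sxl* splicing, had 79.4 FPKM in *heph2* and 66.6 FPKM in the control. *msl-2*, the dosage compensation gene that Sxl silences in females, had 5.98 FPKM in *heph2* and 6.40 FPKM in the control, and *Unr* had 3.20 and 4.70 FPKM in the same order of libraries.

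Hormone receptors and fat body factors that act on yolk genes had ratios on both sides of 0. Of 10 such genes, all were compared, and 0 were at least 2-fold lower or higher, beside 2.44% and 2.79% of all genes. For so few genes a count of 0 lies near those shares. Of the 10, 5 lay below and 5 above 0, and the median log2 ratio was 0.01, with a range of -0.73 to 0.94. Among them, 2 passed 2-fold under an alternative, *jhamt* at -1.17 when centred on ribosomal protein genes and *slbo* at 1.07 among genes of similar length. *jhamt*, which encodes the enzyme that completes juvenile hormone, was the lowest, with 4.66 FPKM in *heph2* and 7.73 FPKM in the control, a log2 ratio of -0.73. *slbo*, which encodes a C/EBP factor of border cells that also binds the yolk enhancer, was the highest, with 1.44 FPKM in *heph2* and 0.751 FPKM in the control. *srp*, a GATA factor of the fat body, had 21.8 FPKM in *heph2* and 16.3 FPKM in the control. The ecdysone receptor gene *EcR* had 2.64 FPKM in *heph2* and 2.26 FPKM in the control.

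Lipoprotein genes also stayed near their control levels, while the yolk receptor gene was too low to be compared. *yl* encodes the receptor through which the oocyte takes up yolk. It had 0.277 FPKM in *heph2* males and 1.22 FPKM in control males, from about 51 and 347 reads. Its mean was below the minimum of 1 FPKM, so it was not among the genes compared, and its log2 ratio of -2.14 had a counting interval of -2.59 to -1.70. Of the other 6 genes of the list, 0 were at least 2-fold lower or higher, beside 2.44% and 2.79% of all genes, which is near those shares for so few genes. *Rfabg*, which encodes the main lipid carrier of the blood and is made in the fat body, had 58.7 FPKM in *heph2* and 64.1 FPKM in the control.

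Genes known for sex-biased expression outside the gonad differed in both directions. Of 7 such genes, 6 were compared, 4 were lower by 2-fold or more and 1 was higher by as much in *heph2*, beside 2.44% and 2.79% of all genes. These counts were the same under each scaling. *fit*, a gene of the female fat body, had 22.8 FPKM in *heph2* and 69.6 FPKM in the control, 3.05-fold lower. The other 3 genes that were lower are known as male-biased. *Cyp4d21*, a cytochrome P450 gene of the male fat body, had 7.24 FPKM in *heph2* and 28.4 FPKM in the control, 3.93-fold lower. *to*, which encodes a secreted carrier protein of the male fat body that affects courtship, had 5.92 FPKM in *heph2* and 17.2 FPKM in the control. *sxe2*, which encodes a lipase-like enzyme, had 10.7 FPKM in *heph2* and 24.4 FPKM in the control. Among the genes compared, the decreases covered 1 female-biased and 3 male-biased genes. With no minimum FPKM, 5 of the 7 genes were lower, as the female pheromone gene *Fad2* was then counted as well.

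*Obp99b*, also known as *tsx* and male-biased in the head fat body, was the gene of this list that was higher, with 1996 FPKM in *heph2* and 596 FPKM in the control, a log2 ratio of 1.74. *eloF*, which encodes a fatty acid elongase for female pheromones, had 23.9 FPKM in *heph2* and 13.6 FPKM in the control and did not reach 2-fold. *Fad2*, the female pheromone desaturase gene under control of Dsx, had 0.0297 FPKM in *heph2*, about 1 read, and 1.04 FPKM in the control, about 54 reads. It was below the minimum mean FPKM. Its log2 ratio of -5.13 had a counting interval of -10.45 to -2.58.

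Of 3 paralogues of *dsx*, 1 was high enough to be compared, through its control level alone, and of 4 germline sex genes 3 were. *dmrt93B*, a *dsx* paralogue on chromosome 3R, had 0.128 FPKM in *heph2* and 3.69 FPKM in the control, from about 3 and 134 reads. Its log2 ratio was -4.85, with a counting interval of -7.14 to -3.27, and 0.109% of all genes compared stood lower. *dmrt99B* had 0.491 FPKM in *heph2* and 0.526 FPKM in the control, and *dmrt11E* had 0.212 FPKM in *heph2* and 0.160 FPKM in the control. *ovo*, a transcription factor gene of the female germline, had 1.02 FPKM in *heph2* and 1.13 FPKM in the control. Its target *otu* had 0.341 FPKM in *heph2* and 0.868 FPKM in the control, a log2 ratio of -1.35 (-1.97 to -0.75). *CG9576*, which is *Phf7*, a male germline chromatin gene, had 2.77 FPKM in *heph2* and 3.46 FPKM in the control. *stwl*, which encodes a chromatin protein of germline stem cells, had 3.18 FPKM in *heph2* and 2.55 FPKM in the control.

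Markers of the ovarian follicle cells, which also make yolk proteins, moved with the yolk genes. The 21 eggshell and follicle cell genes summed to 19.0 FPKM in the *heph2* library and 245 FPKM in the control library, 12.9-fold lower in *heph2*. Of these, 15 were compared, 12 were lower and 0 higher by 2-fold or more, beside 2.44% and 2.79% of all genes, with a median log2 ratio of -4.99. Most of the 12 were below 1 FPKM in *heph2* and passed the filter through their control level. For them, passing the filter and being lower were not independent. With no minimum FPKM, 15 of the 19 genes above 0 in both libraries were lower and 0 higher, with a median of -3.97. With a pseudocount of 0.1, which also takes in genes listed at 0, the median of 17 genes was -4.51, and with a pseudocount of 1 it was -1.99. In *heph2* males 9 of the 21 had 3 estimated reads or fewer, among them *Cp7Fc* and *Vm26Ac*, which were listed at 0, and in control males 0 of the 21 did. *Vm26Aa*, a vitelline membrane gene, had 0.527 FPKM in *heph2* and 56.1 FPKM in the control. *Cp36*, a chorion gene, had 0.253 FPKM in *heph2* and 21.1 FPKM in the control. *Cp15*, a late chorion gene, went against the list, with 10.2 FPKM in *heph2* and 8.36 FPKM in the control. In *heph2* males the summed eggshell FPKM was 1.29 times the summed yolk FPKM, against 2.15 times in control males, and without *Cp15* the values were 0.600 and 2.08 in the same order. Both libraries are reported by the paper to come from males, and the part of follicle cell RNA in the yolk difference was not tested. In whole flies, fewer cells of a type and less RNA per cell cannot be told apart.

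**Figure D3:**
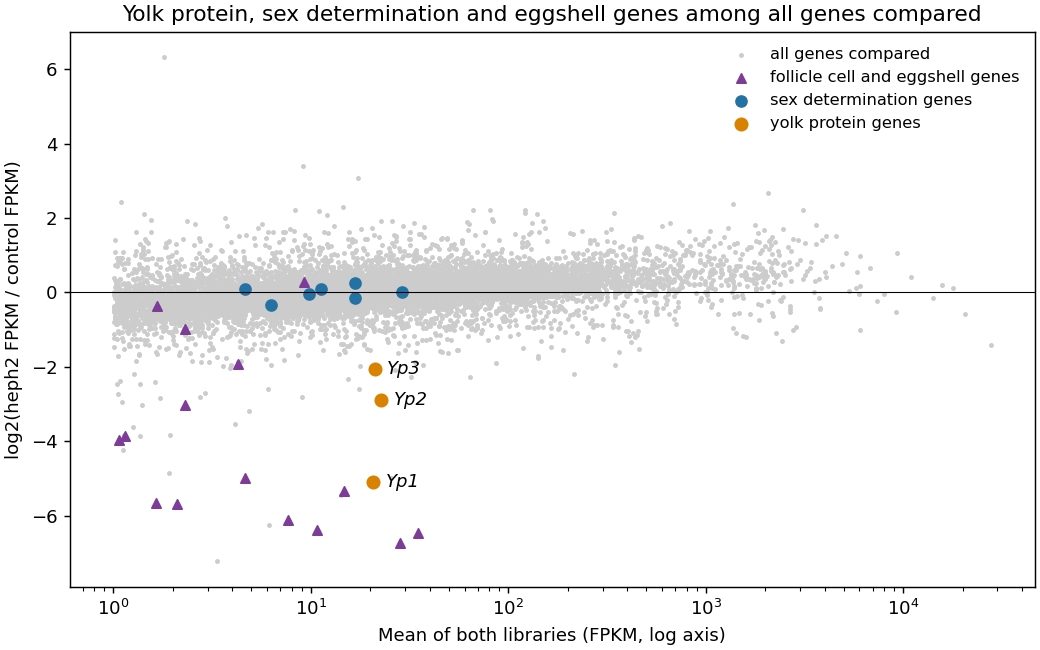
Each point is a gene, with its mean FPKM over both libraries on a log axis and its log2 ratio of *heph2* to control FPKM on the vertical axis. The yolk genes (orange) lie at -5.09, -2.89 and -2.06 among the eggshell genes (purple triangles), of which 12 of 15 are below -1, and the regulators (blue) lie within the cloud of all genes compared (grey).

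Among the female germline genes compared, 8 had log2 ratios below 0 and 3 above 0, and *plu* alone was at least 2-fold higher. Of 13 genes known for their roles in the female germline, 11 were compared, 1 was lower and 1 higher by 2-fold or more, beside 2.44% and 2.79% of all genes, with a median of -0.20 and summed levels of 166 FPKM in *heph2* and 188 FPKM in the control. *gnu*, a gene of early embryonic divisions, was the lower one, with 0.276 FPKM in *heph2* and 1.85 FPKM in the control. The higher one was *plu*, with 2.65 and 1.05 FPKM in the same order, from about 33 and 20 reads. With no minimum FPKM, 3 of the 13 were at least 2-fold lower, *osk*, *gnu* and *bcd*, and 1 was higher. *bcd* had 0.142 FPKM in *heph2* and 0.312 FPKM in the control, a log2 ratio of -1.14 (-2.31 to -0.08). *plu* fell short of 2-fold when centred on ribosomal protein genes or on genes of similar length. *osk*, which encodes the organizer of the germ plasm, had 0.0247 FPKM in *heph2*, about 2 reads, and 1.76 FPKM in the control, about 219 reads. *orb* and *grk*, which are also expressed in these males, made up most of the sum, with 112 and 17.6 FPKM in *heph2* and 129 and 19.3 FPKM in the control. *CG17012*, the spermathecal protease gene *Send1*, was listed at 0 in *heph2* and had 1.08 FPKM in the control, and *CG18125* (*Send2*) had 0.510 FPKM in *heph2* and 0.785 FPKM in the control.

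The 7 genes listed as fat body markers lay on the other side of the control from the yolk genes. Fat body genes of the other lists went both ways. *Rfabg*, *fit*, *Cyp4d21* and *to* had log2 ratios of -0.13, -1.61, -1.97 and -1.54, while *srp* and *Obp99b* had 0.42 and 1.74. All 7 genes of the list had a ratio above 0, and 3 were at least 2-fold higher beside 2.79% of all genes, under each scaling. They summed to 8504 FPKM in *heph2* and 5400 FPKM in the control, with a median log2 ratio of 0.66. *Lsp2*, which encodes a storage protein, had 505 FPKM in *heph2* and 155 FPKM in the control. *Fbp2* had 470 FPKM in *heph2* and 153 FPKM in the control, and *Fbp1*, which encodes a receptor for storage proteins, had 176 FPKM in *heph2* and 62.3 FPKM in the control. *Adh*, which encodes alcohol dehydrogenase, had 6910 FPKM in *heph2* and 4735 FPKM in the control. The part of fat body amount in the yolk difference was not tested.

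**Figure D4:**
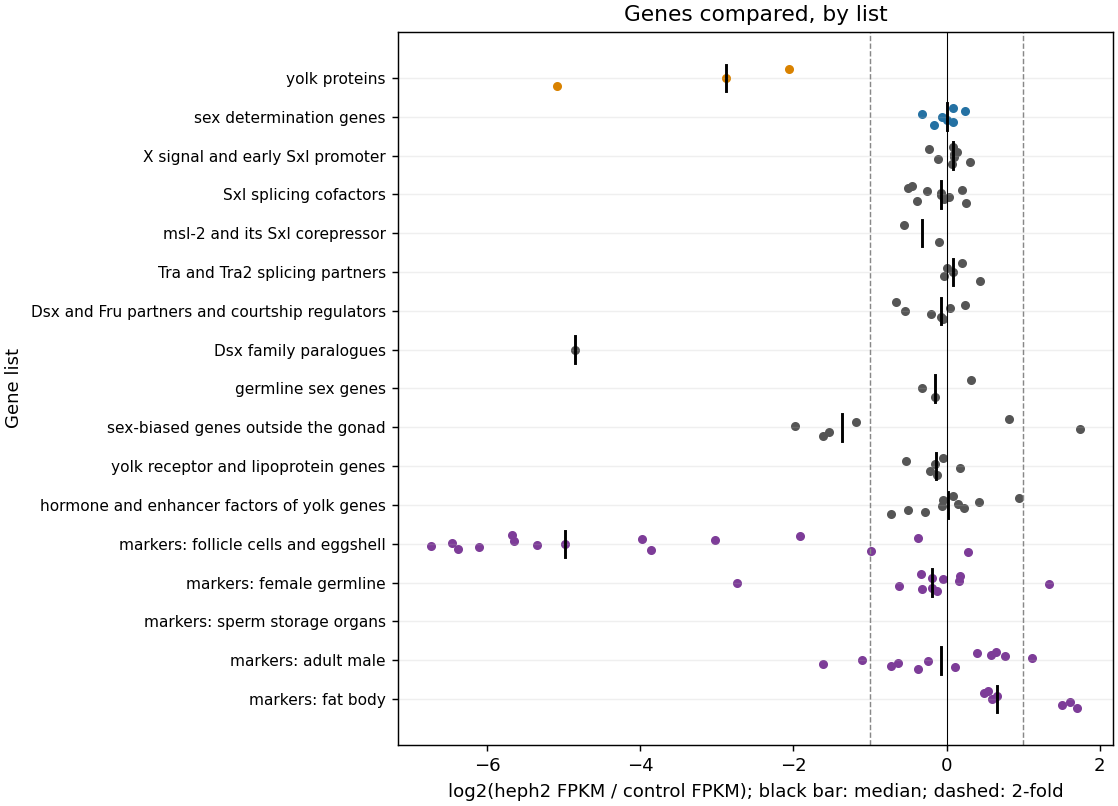
log2 ratio of *heph2* to control FPKM for the genes compared in each list, with a black bar at the median and dashed lines at 2-fold, where the sperm storage list had no gene compared. The medians are -2.89 for the yolk proteins, -4.99 for the eggshell list and 0.66 for the fat body list, and near 0 for the sex determination genes, their splicing partners and the hormone factors.

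The genes whose levels were nearest to those of each yolk gene were taken by the distance of their log2 FPKM over the 2 libraries. Nearest to *Yp1* were *CG11598*, with 1.54 FPKM in *heph2* and 49.4 FPKM in the control, and the vitelline membrane genes *Vm26Ab* and *Vm34Ca*, at distances of 0.49, 0.89 and 0.98. *Vm26Ab* had 0.703 FPKM in *heph2* and 28.7 FPKM in the control, and *Vm34Ca* had 0.787 and 69.3 FPKM in the same order. Nearest to *Yp2* was *dhd*, a thioredoxin gene of the female germline on chromosome X, with 4.94 FPKM in *heph2* and 30.1 FPKM in the control and a distance of 0.42. It was followed by *CG42521*, with 5.07 FPKM in *heph2* and 25.6 FPKM in the control, and by *Cyp4d21*. *Cyp4d21* was also the nearest gene to *Yp3*, at a distance of 0.31. The next were *snoRNA:Me28S-A2958*, with 10.2 FPKM in *heph2* and 29.8 FPKM in the control, and *CG15635*, with 9.90 and 28.5 FPKM in the same order.

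**Figure D5:**
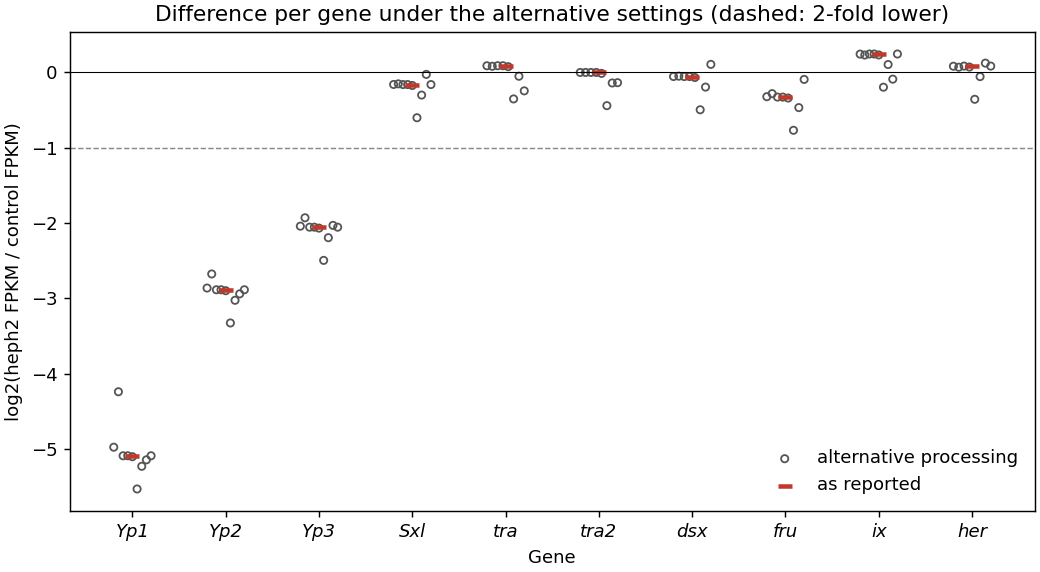
log2 ratio of *heph2* to control FPKM for each gene as reported (red bars) and under up to 9 alternative settings of pseudocount, filter, scaling, length and locus (open circles). The yolk genes stay below -1 in each, between -5.53 and -1.93, and the regulators stay between -0.77 and 0.24.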

How the data were processed

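Single 50-base reads from poly(A) RNA of 2 male libraries were mapped by the authors with TopHat2 2.0.4 to FlyBase r5.44. Per the labels, Cufflinks 2.0.0 and Cuffdiff followed, and the authors deposited 1 FPKM value per gene and library. The deposited log2 fold changes of the authors were not used. Both per-sample columns were matched by title.

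The log2 ratio of *heph2* to control FPKM was computed without a pseudocount for genes averaging 1 FPKM or more with both values above 0. No test was possible. Locus starts were counted from 0 in the table (1503 of 8968 genes alone in their locus matched the BDGP6 length, against 151 for a count from 1), so 1 was added. BDGP6 (Ensembl) gave strand, overlaps and transcript lengths, matched for 13874 genes by ID or symbol. Its coordinates served for these and for the check of locus starts, and not for the positions given here.

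Reads were estimated from the FPKM step of 1 read and the median transcript length, with an assumed fragment length of 200 ± 80 bases. For genes with several transcripts this is approximate. *Sxl* would have between 621 and 2721 *heph2* reads over its shortest and longest transcript. Intervals of ratios were exact conditional binomial (95%), and those of levels exact Poisson. In the lists, 2 genes were matched by ID and 3 by synonym. Genes named were the members, listed genes, and the 3 nearest to each yolk gene. Some listed genes within 2-fold were named after their values were seen. Members and lists were chosen with earlier results of these data known. Steps were tested on simulated data. Promoter and protein sequences were not analysed here. Python 3.11.15, numpy 2.4.6, pandas 2.3.3, scipy 1.17.1 and matplotlib 3.10.9 were used.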

Additional observations from a re-analysis of the deposited data

How the results depend on the processing

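No paired analysis was possible because each genotype had 1 library. Under the 9 alternatives the yolk genes stayed at least 2-fold lower. No regulator reached 2-fold under those that gave it a value, 9 for *Sxl* and *ix* and 8 for the other 5, since *tra*, *tra2*, *dsx* and *fru* were left out where only genes alone in their locus were kept. With a pseudocount of 1 the log2 ratio was -4.24 for *Yp1* and -2.68 for *Yp2*, also the median of the yolk genes. Centring on 85 ribosomal protein genes took 0.44 from every log2 ratio. It gave -3.33 for *Yp2* and for the yolk median, -2.50 for *Yp3*, -0.44 for the median of the regulators, and 940 genes lower and 104 higher. Scaling on the upper quartile took 0.14 from every ratio, with medians of -3.03 for the yolk genes and -0.14 for the regulators. With no minimum FPKM, 566 genes were at least 2-fold lower, and with a minimum mean of 5 it was 159, where *her* was left out. Centring within 10 bins of transcript length left 201 genes at least 2-fold higher. The small ratios of *tra*, *dsx*, *ix* and *her* changed sign under some of the scalings, of which those on ribosomal protein genes and on the upper quartile move every gene by the same amount, while those of *Sxl*, *tra2* and *fru* were below 0 under each one. Counting error limits *Yp1* most among the members, with about 49 *heph2* reads.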
